A study of Mus musculus with 6 samples.

Results

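The mRNA levels of 9 mouse genes that write, maintain or remove DNA methylation were compared between pluripotent embryonic stem cells (ESCs) and neuronal cells (NCs) made from them with retinoic acid (RA). The genes were chosen by name: Dnmt1, Uhrf1, Dnmt3a, Dnmt3b, Dnmt3l, Tet1, Tet2, Tet3 and Tdg. Each name had a single row among the 23235 rows of the RNA-seq table. Both groups came from the mouse ESC line E14Tg2a (passages 37 to 40), in medium with serum. The ESC group had 3 samples, kept with leukemia inhibitory factor (LIF), which sustains self-renewal. The NC group had 3 samples, grown as monolayers without LIF in 1 μM RA for 48 h. Withdrawal of LIF and addition of RA were combined in the NC group and cannot be told apart, and all samples came from a single line. The deposited table gives 1 FPKM value (fragments counted per kilobase of transcript and scaled to mapped fragments) per gene and condition, which pools the 3 replicates. The spread between replicates is therefore unknown, no value below carries an SD, and no difference was tested.

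DNA methylation in mammals is placed mainly on the cytosine of CpG dinucleotides. DNMT3A and DNMT3B methylate new sites, DNMT3L is an inactive relative that stimulates them, and DNMT1 copies the pattern to the new strand after replication, guided by UHRF1, which binds hemimethylated DNA. The TET enzymes oxidize 5-methylcytosine, and TDG excises the further oxidized bases so that base excision repair can restore cytosine. ESCs are known for high Dnmt3b, Dnmt3l and Tet1 expression.

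The FPKM of Dnmt3b, Dnmt3l, Tet1 and Tet2 was at least 2-fold lower in NCs, that of Tet3 was at least 2-fold higher, and the other 4 genes differed by less than 2-fold. Tet1 differed most, and was 10.0-fold lower in NCs. Thus 4 of 9 genes (44.4%) were at least 2-fold lower, against 9.93% of the 12784 genes with a mean FPKM of at least 1 over both conditions. The single gene that was at least 2-fold higher makes up 11.1% of the 9, and the share among all genes was also 11.1%, so that this count does not set the genes apart. The median log2 ratio (NC over ESC) was -0.38 for the 9 genes and -0.04 for all genes. All 9 genes passed the filter on the mean.

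**Figure D1:**
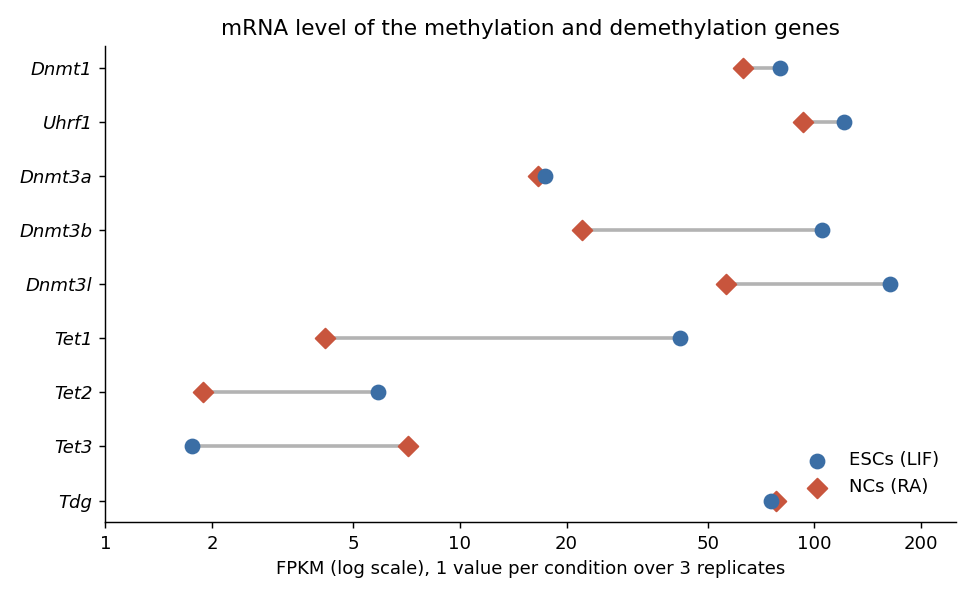
FPKM of the 9 genes on a log scale, 1 value per condition that pools 3 replicates, with ESCs as blue circles and NCs as red diamonds. The markers nearly coincide for Dnmt3a and Tdg, lie far apart for Tet1 (41.8 in ESCs and 4.16 in NCs), and are in the opposite order for Tet3.

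Dnmt3b, Dnmt3l and the Tet genes, which carry the differences, are shown with the window from 250 bases before to 50 bases after the annotated transcription start (GRCm38.p6, most upstream start in RefSeq, read on the strand of the gene). CpG dinucleotides, the substrate of these enzymes, are in capitals. Dnmt3b lies at chr2:153649199-153649498 (plus strand), Dnmt3l at chr10:78042037-78042336 (plus), Tet1 at chr10:62887275-62887574 (minus), Tet2 at chr3:133544341-133544640 (minus) and Tet3 at chr6:83441629-83441928 (minus).
Dnmt3b: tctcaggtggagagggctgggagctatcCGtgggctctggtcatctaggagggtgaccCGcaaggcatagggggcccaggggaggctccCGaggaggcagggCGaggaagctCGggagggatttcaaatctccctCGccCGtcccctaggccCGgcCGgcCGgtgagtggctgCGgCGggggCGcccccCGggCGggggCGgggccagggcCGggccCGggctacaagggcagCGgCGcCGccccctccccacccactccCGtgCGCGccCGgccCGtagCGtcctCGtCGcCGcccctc
Dnmt3l: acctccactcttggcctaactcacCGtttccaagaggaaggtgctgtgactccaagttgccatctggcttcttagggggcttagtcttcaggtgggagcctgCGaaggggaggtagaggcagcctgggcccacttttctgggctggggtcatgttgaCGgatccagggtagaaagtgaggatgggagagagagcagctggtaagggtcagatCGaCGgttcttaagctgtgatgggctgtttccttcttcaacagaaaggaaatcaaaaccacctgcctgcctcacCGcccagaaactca
Tet1: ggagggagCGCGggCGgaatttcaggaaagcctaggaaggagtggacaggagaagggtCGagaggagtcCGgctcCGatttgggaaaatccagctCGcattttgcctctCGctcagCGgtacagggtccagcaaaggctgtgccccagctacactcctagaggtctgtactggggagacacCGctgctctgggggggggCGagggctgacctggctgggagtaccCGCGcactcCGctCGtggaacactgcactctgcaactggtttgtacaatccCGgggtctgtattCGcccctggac
Tet2: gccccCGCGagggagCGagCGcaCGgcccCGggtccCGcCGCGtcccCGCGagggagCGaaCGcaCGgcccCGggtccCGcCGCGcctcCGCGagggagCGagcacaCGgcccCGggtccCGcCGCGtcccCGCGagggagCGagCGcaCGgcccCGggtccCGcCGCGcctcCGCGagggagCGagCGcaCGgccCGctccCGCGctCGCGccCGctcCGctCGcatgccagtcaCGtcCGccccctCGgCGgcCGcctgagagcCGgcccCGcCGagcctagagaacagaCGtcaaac
Tet3: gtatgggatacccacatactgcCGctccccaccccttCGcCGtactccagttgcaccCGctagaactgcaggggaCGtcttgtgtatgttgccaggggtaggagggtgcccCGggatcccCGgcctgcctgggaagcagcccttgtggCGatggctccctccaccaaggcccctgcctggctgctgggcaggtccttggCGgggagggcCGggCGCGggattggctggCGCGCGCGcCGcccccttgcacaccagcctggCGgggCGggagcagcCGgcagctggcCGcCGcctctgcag

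The windows differed widely in CpG content. Tet2 had 57 CpG, more than 99.8% of the 32851 promoter windows of all genes, and Dnmt3b had 30. Tet1 held 17 and Tet3 22. Both genes lie on the minus strand, with a single RefSeq window well inside the GENCODE span, which reaches 62908996 for Tet1 and 83459084 for Tet3. Starts further upstream in GENCODE were not examined. Dnmt3l has 3 annotated starts, with 6, 4 and 3 CpG, below the median of 7 for all windows. Among the genes that differed by less than 2-fold, Tdg had 26 CpG, and the upstream starts of Dnmt3a had 46 and 47, while its internal start had 18. The starts of Dnmt1 held 2, 12 and 33, and those of Uhrf1 12 and 33. The genes that were lower in NCs thus included windows below the median and a window near the upper end of the range. FPKM per gene does not show which start was used. All 9 genes matched the RefSeq table, with 16 windows in all, and the upstream windows of Dnmt3a overlap.

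**Figure D2:**
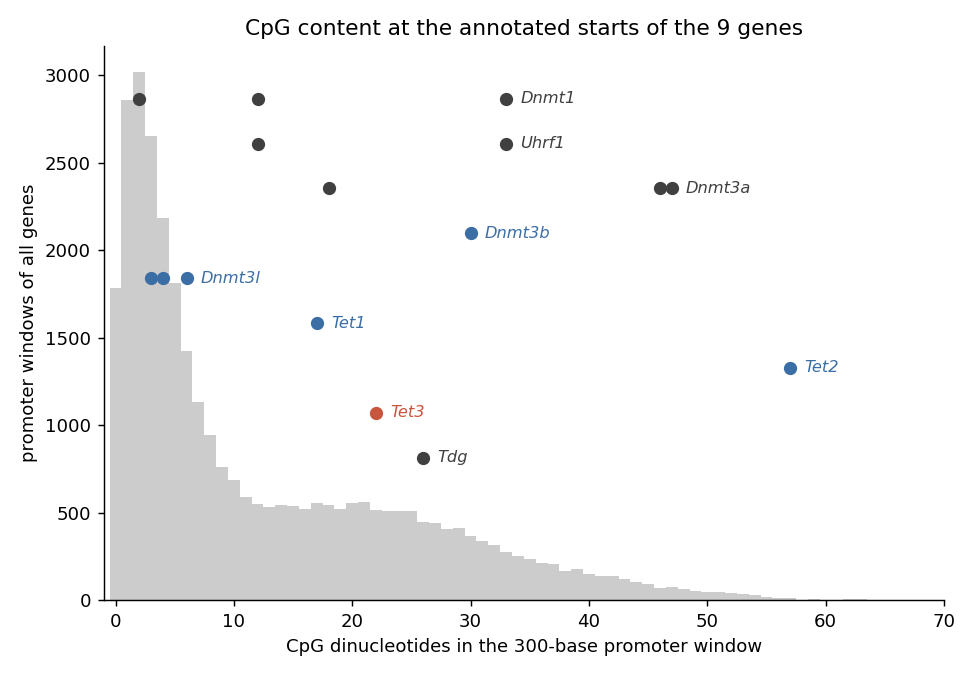
CpG dinucleotides per 300-base promoter window: grey bars count the windows of all genes, and each dot is an annotated start of a named gene (blue, at least 2-fold lower in NCs; red, at least 2-fold higher; dark grey, less than 2-fold; dot height has no meaning). Tet2 lies at 57 CpG and the 3 starts of Dnmt3l at 3 to 6.

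Short motifs were searched on both strands of these windows. The GC box GGGCGG was found in 12 of the 16 windows, in 8 of the 9 genes and not in Tdg, and in 35.7% of all windows. CCAAT was found in 6 windows, at Dnmt1, Uhrf1, Tet3 and Tdg, and in 37.4% of all windows. The core E2F sequence TTCCCGC was found in a window of Uhrf1 and in 4.6% of all windows. The nuclear receptor core AGGTCA was found at Uhrf1, Tet1 and the internal start of Dnmt3a (16.3% of all windows), and the STAT sequence TTCNNNGAA at Dnmt3l and Tdg (8.3%). The octamer ATGCAAAT was in no window of the 9 genes and in 1.74% of all windows. Direct repeats of that core with 2 or 5 bases between them, which contain AGGTCA by construction, were in no window of the 9 genes and in 0.00913% of all windows each. A match is a match of letters only.

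The maintenance pair was high in both conditions. Dnmt1 (chromosome 9, 20907209 to 20959888) had 80.2 FPKM in ESCs against 62.7 in NCs, a 1.28-fold lower value. Uhrf1 (chromosome 17, 56303321 to 56323486) had 121 FPKM in ESCs against 92.9 in NCs, a 1.30-fold lower value. The ratio of Dnmt1 to Uhrf1 was 0.663 in ESCs and 0.675 in NCs, so that the levels of the pair kept nearly the same proportion. Both genes stood in the upper part of the table, with more FPKM than 90.4% (Dnmt1) and 93.9% (Uhrf1) of all genes in ESCs. In the transcripts of Uhrf1, 15.4% of the 50-base words also occur in another gene, mostly the pseudogene Gm5648.

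Since both work at replication forks, the values of 30 S phase genes stand beside them. Their median log2 ratio was -0.30, near the log2 ratios of -0.35 for Dnmt1 and -0.38 for Uhrf1. Of the 30, 29 differed by less than 2-fold and 20 had the lower FPKM in NCs. Among all genes 11.1% were at least 2-fold higher and 9.93% at least 2-fold lower, so that most genes of any kind were within 2-fold. Pcna, the sliding clamp that recruits DNMT1, had 374 FPKM in ESCs against 332 in NCs. The exception was Ccne2, a cyclin of S phase entry, with 1.91 FPKM in ESCs against 4.80 in NCs. The part of proliferation in the Dnmt1 and Uhrf1 values was not tested.

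The de novo enzymes differed from each other. Dnmt3b (chromosome 2, 153649450 to 153687730) had 105 FPKM in ESCs against 22.1 in NCs, a 4.76-fold lower value, which ranked 340 among the falls of 12784 genes. Dnmt3a (chromosome 12, 3806007 to 3914443) had 17.4 FPKM in ESCs against 16.7 in NCs, a log2 ratio of -0.06. The sign of this small difference depended on the scaling, with a log2 ratio of 0.23 when both conditions were set to equal sums of FPKM. In ESCs Dnmt3b exceeded Dnmt3a 6.07-fold, and in NCs 1.33-fold. The change in their proportion was 4.57-fold, a value that needs no scaling between conditions. In the transcripts of Dnmt3b, 9.81% of the 50-base words also occur in its duplicate Dnmt3c.

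Dnmt3l (chromosome 10, 78041947 to 78063622), the inactive cofactor, was the most abundant of the 9 mRNAs in ESCs. It had 164 FPKM in ESCs against 56.4 in NCs, a 2.91-fold lower value and a log2 ratio of -1.54. In NCs it still stood above Dnmt3b and Dnmt3a. The ratio of Dnmt3l to Dnmt3b was 1.56 in ESCs and 2.55 in NCs, and that of Dnmt3l to Dnmt3a 9.44 in ESCs and 3.38 in NCs. The start of Dnmt3l overlaps the start of Aire on the opposite strand, and use of strand in the counting was not stated. Aire had 11.1 FPKM in ESCs against 1.21 in NCs, and its part in the Dnmt3l value was not tested.

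Summed over Dnmt1, Dnmt3a and Dnmt3b, the 3 active enzymes, FPKM was 203 in ESCs and 102 in NCs, a 2.00-fold lower value. Dnmt3b made up 51.9% of this sum in ESCs and 21.8% in NCs. Dnmt1 made up 39.5% in ESCs and 61.8% in NCs, and Dnmt3a 8.56% and 16.4%. The leading methyltransferase mRNA was thus Dnmt3b in ESCs and Dnmt1 in NCs.

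**Figure D3:**
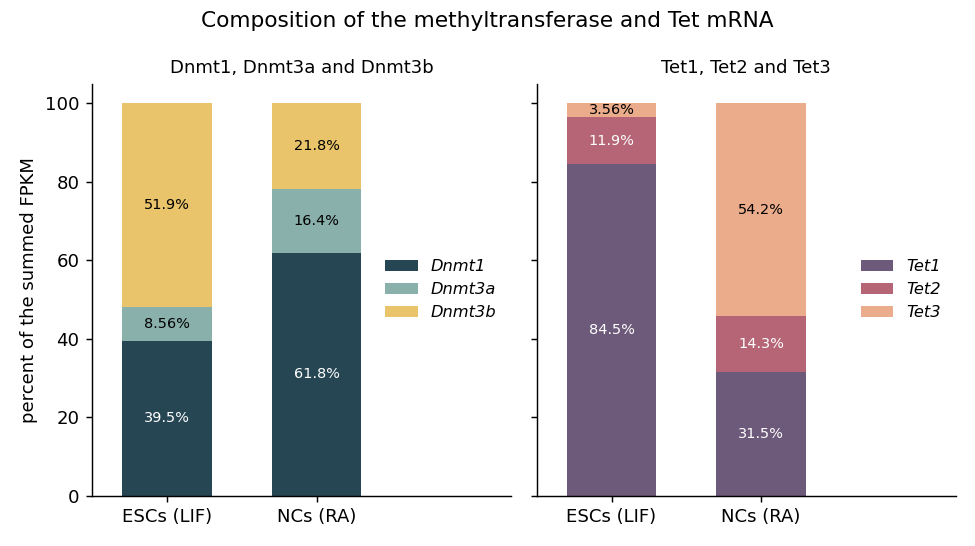
Percent of the summed FPKM contributed by each active methyltransferase gene (left) and each Tet gene (right) in ESCs and NCs, 1 pooled value per condition. Dnmt3b gives way to Dnmt1 as the largest share, and Tet1, at 84.5% in ESCs, gives way to Tet3, at 54.2% in NCs.

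The Tet genes differed in opposite directions. Tet1 (chromosome 10, 62804570 to 62908996) had 41.8 FPKM in ESCs against 4.16 in NCs. Its log2 ratio of -3.33 ranked 145 among the falls, and 1.13% of all genes had a lower ratio. Tet2 (chromosome 3, 133463679 to 133545139) had 5.89 FPKM in ESCs against 1.89 in NCs, a 3.12-fold lower value. Tet3 (chromosome 6, 83362373 to 83459084) had 1.76 FPKM in ESCs against 7.16 in NCs, a 4.07-fold higher value that ranked 521 among the rises. Tet2 was in the lower part of the table, above 33.0% of all genes in ESCs and 10.2% in NCs.

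The order of the Tet mRNAs was Tet1, Tet2, Tet3 in ESCs and Tet3, Tet1, Tet2 in NCs. In ESCs, Tet1 exceeded Tet2 7.10-fold and Tet3 23.8-fold. In NCs, the ratio of Tet1 to Tet3 was 0.582, and Tet3 exceeded Tet2 3.80-fold. The change in the ratio of Tet1 to Tet3 was 40.8-fold. The sum of the 3 genes was 49.4 FPKM in ESCs against 13.2 in NCs, a 3.74-fold lower value. Tet3 made up 3.56% of that sum in ESCs and 54.2% in NCs, Tet1 84.5% and 31.5%, and Tet2 11.9% and 14.3%. The summed methyltransferase FPKM was 4.10 times the summed Tet FPKM in ESCs and 7.69 times in NCs.

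Tdg (chromosome 10, 82629828 to 82650799), the glycosylase that acts after the TET enzymes, had 75.3 FPKM in ESCs against 77.7 in NCs, a 1.03-fold higher value. The ratio of Tdg to Tet1 was 1.80 in ESCs and 18.7 in NCs. The Tdg value is uncertain, since 41.2% of the 50-base words in its transcripts also occur in other genes, mainly in the pseudogenes Tdg-ps, Gm9855 and Gm5597. Glt8d2, which overlaps Tdg on the opposite strand, had 0.215 FPKM in ESCs against 0.414 in NCs. Over Dnmt1, Dnmt3a, Dnmt3l, Tet1, Tet2 and Tet3 the share of such words was at most 0.761%.

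On the FPKM scale, which is per length, the order in ESCs was Dnmt3l, Uhrf1, Dnmt3b, Dnmt1, Tdg, Tet1, Dnmt3a, Tet2 and Tet3, over a 93.1-fold range. In NCs it was Uhrf1, Tdg, Dnmt1, Dnmt3l, Dnmt3b, Dnmt3a, Tet3, Tet1 and Tet2, over a 49.3-fold range. Whether neighbours in either order differ beyond the spread between replicates cannot be said. The least covered values, Tet3 in ESCs and Tet2 in NCs, rested on about 129 and 138 fragments per kilobase of transcript. This reading takes 0.0136 FPKM as the worth of 1 fragment in 1 kb. That is the larger of the steps seen among the lowest values of the table. It gives a counting error of 8.81% and 8.51% for 1 kb of transcript, which does not cover replicates. The longest coding transcripts have 5944 bases (Tet3) and 9021 bases (Tet2), so that the counting error over a whole transcript would be smaller. The smaller steps, 0.0121 FPKM in ESCs and 0.00705 FPKM in NCs, would give more fragments, in NCs by over 1.5 times.

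The sums of FPKM differed between conditions, with 770592 in ESCs and 628679 in NCs. Setting the sums equal raised every log2 ratio by 0.29, and the median of all genes to 0.26. The share of higher genes among all genes past 2-fold was 52.8% as deposited and 70.8% with equal sums, where 16.4% of genes were at least 2-fold higher and 6.77% at least 2-fold lower. Dnmt3b, Dnmt3l, Tet1, Tet2 and Tet3 stayed past 2-fold in the same direction under that scaling, as under median centring and equal upper quartiles.

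**Figure D4:**
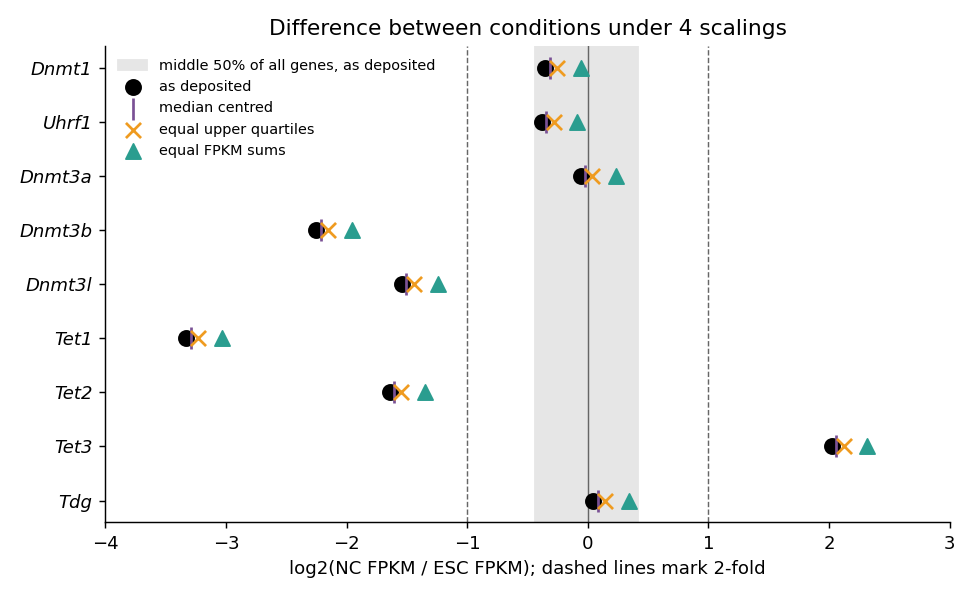
Log2 ratio of the NC to the ESC FPKM for each gene as deposited (black circle) and under 3 other scalings, with dashed lines at 2-fold and the middle 50% of all genes as deposited in grey. Dnmt3b, Dnmt3l, Tet1, Tet2 and Tet3 lie outside the dashed lines under each of the 4 scalings, and Dnmt3a lies on both sides of 0.

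The labels of the conditions were checked with marker genes. All 10 pluripotency markers were at least 2-fold lower in NCs, with a summed FPKM of 6282 in ESCs and 955 in NCs. Of 8 neural markers that passed the filter, 4 were at least 2-fold higher, among them Sox1 (1.77 FPKM in ESCs against 21.8 in NCs) and Pax6 (3.64 and 65.2). The neuronal genes Tubb3 and Elavl3 were at least 2-fold lower. The NC label thus matched early neural genes and not those 2 neuronal genes. Of 6 endoderm markers that passed the filter, 5 were at least 2-fold higher, with a summed FPKM over the 7 listed of 16.9 in ESCs and 39.3 in NCs. The summed FPKM of 7 fibroblast markers was 19.8 in ESCs and 44.1 in NCs, with 4 of 5 that passed at least 2-fold higher, and that of 6 trophoblast markers 65.7 and 73.7, where 2 of the 3 that passed were at least 2-fold higher (Gata3 and Krt8) and 1 at least 2-fold lower (Tfap2c). No mesoderm marker passed the filter. The part of other cell types in the Dnmt and Tet values was not tested, and fewer cells of a type and less RNA per cell cannot be told apart in bulk RNA.

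Genes listed as upstream regulators of the Dnmt and Tet genes in ESCs were mostly lower in NCs, and were chosen as a list with these results known. Of 12, 9 were at least 2-fold lower and 1 at least 2-fold higher, with a median log2 ratio of -3.76. Among all genes 9.93% were at least 2-fold lower and 11.1% at least 2-fold higher. Pou5f1, Nanog, Zfp42 and Esrrb were also counted among the pluripotency markers above, so that the lists overlap. Prdm14, Otx2 and Foxd3 were below 1 FPKM in NCs and passed the filter only through their ESC values. Prdm14, a repressor of the Dnmt3 genes, had 4.88 FPKM in ESCs against 0.217 in NCs. Dppa3, also counted in the list, shields DNA from UHRF1-dependent methylation, which is not an action on a Dnmt or Tet gene. It had 58.6 FPKM in ESCs against 7.85 in NCs. Esrrb was 43.7-fold lower and Otx2 228-fold lower. Lin28b was the gene with the higher value, 7.56 FPKM in ESCs against 25.4 in NCs. The part of these genes in the Dnmt and Tet values was not tested.

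Of 19 partners of the methyltransferases, 1 was at least 2-fold higher, 1 at least 2-fold lower and 17 within 2-fold, with a median log2 ratio of 0.02. Among all genes 11.1% were higher and 9.93% lower, so that most genes of any kind lay within 2-fold, and the counts of this and the following lists are to be read against these shares. Hells, a remodeler needed for methylation of repeats, had 123 FPKM in ESCs against 62.6 in NCs, just within the 2-fold limit. Uhrf2, the relative of Uhrf1, had 29.8 FPKM in ESCs against 39.4 in NCs, and Cdca7, the partner of HELLS, 86.1 and 89.4. Trdmt1, a relative of the DNMT enzymes that methylates tRNA, had 2.45 FPKM in ESCs against 3.03 in NCs. Morc1, which acts in transposon silencing in the male germline, had 27.1 FPKM in ESCs against 2.63 in NCs and was 10.3-fold lower. Nsd2 (named Whsc1 in the table), a histone H3 methyltransferase, was 2.80-fold higher.

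Of 9 genes of the methyl-CpG reader list that passed the filter, 2 were at least 2-fold higher and none was at least 2-fold lower, with a median log2 ratio of 0.63. Mbd2 had 7.89 FPKM in ESCs against 22.8 in NCs, a 2.89-fold higher value, and Mbd5 1.10 FPKM and 3.21 FPKM, a 2.92-fold higher value. MBD5 is known not to bind methylated DNA, so that Mbd2 was the only methyl-CpG binding gene among these 9 past the limit. Mbd4, which is also a thymine glycosylase, had 9.83 FPKM in ESCs against 7.58 in NCs.

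On the side of demethylation, 14 of 16 Tet partner and cofactor genes were within 2-fold and 2 were at least 2-fold lower, a share near the 9.93% of all genes. Ogt, the O-GlcNAc transferase that binds TET proteins, had 57.3 FPKM in ESCs against 39.9 in NCs. Idh3a, a subunit of the enzyme that makes the TET cosubstrate 2-oxoglutarate, was 2.19-fold lower in NCs. The median log2 ratio of the 16 genes was -0.24.

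Of 21 base excision and deaminase genes, 17 were within 2-fold and 4 were at least 2-fold lower, with a median log2 ratio of -0.37. Smug1, a glycosylase that like TDG removes uracil, had 7.72 FPKM in ESCs against 10.7 in NCs. Neil2, a glycosylase that can act after TDG, was 3.60-fold lower, with 9.08 FPKM in ESCs against 2.52 in NCs. The other 3 were of the Apobec family: Apobec1 was 6.75-fold lower, Apobec2 6.40-fold lower and Apobec3 5.09-fold lower, the last with 39.9 FPKM in ESCs against 7.84 in NCs. Apobec2 was below 1 FPKM in NCs and passed the filter only through its ESC value. APOBEC3 is known for restriction of retroviruses.

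**Figure D5:**
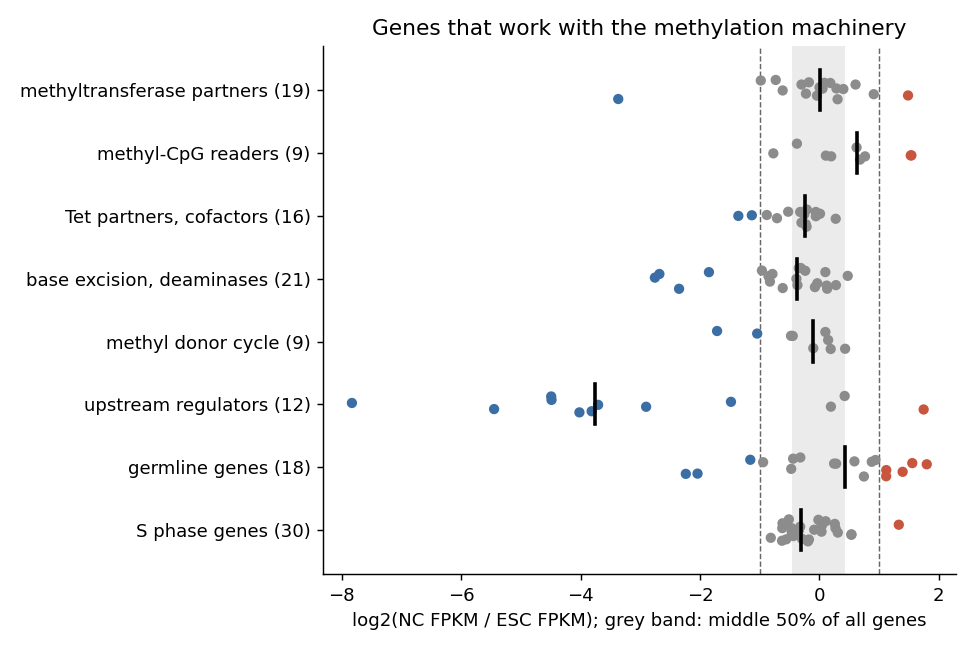
Log2 ratio of the NC to the ESC FPKM for the genes of 8 lists with a mean FPKM of at least 1 (number in parentheses); each dot is a gene (red, at least 2-fold higher; blue, at least 2-fold lower), black bars are medians and the grey band is the middle 50% of all genes. The median is -3.76 for the upstream regulators and between -0.37 and 0.63 for the other 7 lists.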

How the data were processed

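RNA-seq was analysed in 3 ESC and 3 NC samples. The authors aligned reads with TopHat 2.0.8 and Bowtie 2.1.0 (mm10) and used Cufflinks 2.0.2, Cuffmerge and Cuffdiff (its version and normalization are not given in the sources used here). They deposited 1 FPKM value per gene and condition. The NC heading reads FPK and was taken as FPKM. The columns with the authors' fold changes and p-values were not used.

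Ratios were computed without a pseudocount over genes with a mean FPKM of at least 1, with a limit of 2-fold. A pooled value allows no test. The genes and lists were chosen with earlier results of these data known. Named were the 9 genes, a few fixed partners and, per list, up to 4 genes past the limit with the largest log2 ratios; a result under this rule is not reported here. Nsd2 and Hmces were found under older names. Gene positions, overlaps and shared 50-base words came from GENCODE M21 (GRCm38, the assembly of mm10). Promoter windows came from RefSeq (GRCm38.p6). Python 3.11.15, numpy 2.4.6, pandas 2.3.3 and matplotlib 3.10.9 were used, with 10 other settings tried.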

Additional observations from a re-analysis of the deposited data

How the results depend on the processing

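No paired analysis was possible because the table holds 1 pooled value per condition, and for the same reason no replicate could be left out. Tet1 and Dnmt3b were at least 2-fold lower, and Dnmt1 and Uhrf1 had the lower FPKM in NCs, under each of the 10 other settings. Tet3 had the higher value in each, with log2 ratios from 1.56 (pseudocount of 1) to 2.32 (equal sums). Only equal sums, equal upper quartiles and median centring could change the sign of a ratio, so that the other settings do not test a direction. With equal sums the log2 ratio was only -0.06 for Dnmt1 and -0.09 for Uhrf1. With a mean FPKM of at least 5, Tet2 and Tet3 were no longer counted, which left 0 genes at least 2-fold higher. With a limit of 4-fold, 2 genes, Dnmt3b and Tet1, were past it on the lower side. Dnmt3a had a log2 ratio above 0 with equal sums and with equal upper quartiles.

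Over the 8 lists other than the marker lists, 10 genes were at least 2-fold higher and 21 lower. Of the 21, 9 were from the list of upstream regulators, which shares genes with the pluripotency markers. The higher genes numbered 5 with a pseudocount of 1, 4 with a mean FPKM of at least 5 and 0 at 4-fold. With equal sums, 15 were higher and 18 lower, and without a filter 15 and 23. At 1.5-fold, 19 were higher and 38 lower. Over the whole table, 1419 genes (11.1%) were at least 2-fold higher and 1270 (9.93%) lower. These became 3861 (19.7%) and 2880 (14.7%) without a filter, and 634 (6.83%) and 734 (7.91%) with a mean FPKM of at least 5. At 1.5-fold they were 2471 (19.3%) and 2400 (18.8%), and at 4-fold 537 (4.2%) and 426 (3.33%). The shares were 16.4% and 6.77% with equal sums, and 7.91% and 7.42% with a pseudocount of 1. Among the 9 genes, the lowest FPKM was that of Tet3 in ESCs and of Tet2 in NCs.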

Other observations

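Germline genes known for repression by promoter methylation went in both directions. Of 18 that passed the filter, 5 were at least 2-fold higher in NCs, 3 were at least 2-fold lower, and the median log2 ratio was 0.44. Among all genes 11.1% were at least 2-fold higher and 9.93% at least 2-fold lower. Brdt, Slc25a31 and Tuba3b, counted among the higher genes, were below 1 FPKM in ESCs and passed the filter only through their NC values. Taf7l, a testis form of a general transcription factor subunit, had 1.01 FPKM in ESCs against 3.50 in NCs, and Dazl, an RNA-binding protein of germ cells, 4.35 and 9.46. Brdt, a testis bromodomain gene, had 0.663 FPKM in ESCs against 1.95 in NCs. Sycp3 and Hormad1, both of the meiotic chromosome axis, were 4.71-fold and 4.11-fold lower in NCs. DNA methylation was not measured in these samples.

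The methyl donor cycle makes S-adenosylmethionine for the DNMT enzymes. Of its 9 genes that passed the filter, 7 were within 2-fold and 2 were lower, where 11.1% of all genes were higher and 9.93% lower. Of the 2, Gnmt, which uses up the methyl donor, was 3.28-fold lower and Mtrr, which reactivates methionine synthase, 2.06-fold lower. Mat2a, the synthase of the methyl donor, had 81.6 FPKM in ESCs against 110 in NCs, and Ahcy, which clears its product, 228 and 164.

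The nearest measured protein-coding genes on both sides of Dnmt3b, Dnmt3l, Tet1, Tet2 and Tet3 that do not overlap them were mostly within 2-fold. Aire, which overlaps Dnmt3l and was lower in NCs, was thus not among them. Of these 10 neighbours, 1 was past 2-fold in the direction of its member, Pfkl beside Dnmt3l, with 171 FPKM in ESCs against 79.9 in NCs. Among all genes 11.1% were at least 2-fold higher and 9.93% at least 2-fold lower, so that this count does not set the neighbours apart. Cenpe, the neighbour of Tet2 on 1 side, lay 1667398 bases away. Pfkl was named after its value was seen.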
